A study of Mus musculus with 12 samples.

Results

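The RGK GTPases and the beta subunits of voltage-gated calcium channels were examined as 8 of the 54022 genes in the deposited tables: Gem, Rrad, Rem1 and Rem2 for the GTPases, and Cacnb1, Cacnb2, Cacnb3 and Cacnb4 for the beta subunits. They were taken by gene name, and the group was selected on measured values of these libraries, since the level of Gem in high against low glucose drew attention to it. The values of the 8 genes in both glucose comparisons are therefore a description, in which counts of genes past the threshold are given beside those of all genes and nothing is read from them, and the comparisons tested are those for TMAO, on which the choice did not rest.

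Voltage-gated calcium channels open when a glucose-stimulated β cell depolarizes, and the calcium that enters triggers exocytosis of insulin. Each high-voltage-activated channel has a pore-forming alpha-1 subunit and a cytoplasmic beta subunit that carries the pore to the cell surface and sets its gating. RGK proteins form a branch of the Ras superfamily, bind beta subunits and, when overexpressed, strongly reduce calcium current. Unlike most Ras proteins, they lack the C-terminal lipid anchor and end in a conserved stretch of their own.

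MIN6, an insulin-secreting line from a mouse insulinoma with the wild-type genotype in all samples, received vehicle or trimethylamine N-oxide (TMAO, 100 nM) for 18 h. They were then fasted and stimulated with low (2.8 mM) or high (16.8 mM) glucose, the levels named in the study's text, and the duration of the stimulation before RNA extraction is not stated for these libraries in the sources used here. The 4 conditions were low glucose with vehicle, low glucose with TMAO, high glucose with vehicle and high glucose with TMAO, each with 3 libraries that the series describes as biological replicates. Poly-A selected RNA was sequenced in pairs of reads, and the tables hold fragments counted per gene and FPKM, the count scaled to gene length and to library size.

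The last 48 bases of each RGK coding sequence, stop codon included, show the shared C-terminal stretch at the level of the transcript. They are given on the coding strand from the longest complete coding transcript of each gene in GENCODE M21 on GRCm38, and capitals mark the 22 positions at which all 4 genes hold the same base.
Gem: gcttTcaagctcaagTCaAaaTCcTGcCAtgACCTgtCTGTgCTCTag
Rrad: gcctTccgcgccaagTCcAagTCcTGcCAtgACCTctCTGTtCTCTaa
Rem1: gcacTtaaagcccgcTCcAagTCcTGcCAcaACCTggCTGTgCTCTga
Rem2: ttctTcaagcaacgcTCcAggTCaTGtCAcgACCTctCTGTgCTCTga

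Gem and Rrad had the same base at 37 of these 48 positions, Gem and Rem1 at 32, and Gem and Rem2 at 31. Identity of this kind could let a read match more than 1 gene, so the longest run of identical bases between any pair of coding sequences within each family was found. Among the RGK genes it was 23 bases, between Rrad and Rem1, and among the beta subunits it was 24 bases, between Cacnb1 and Cacnb2. The 2 runs are printed in capitals because each base is shared.
Rrad and Rem1: TTCGACTGCAAGTTCATCGAGAC
Cacnb1 and Cacnb2: CCCTTCTTTAAGAAGACAGAGCAC

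Both runs are far shorter than the reads that the study's methods describe. The coding sequences were 888 bases for Gem, 924 for Rrad, 894 for Rem1 and 1026 for Rem2, and 2034, 1968, 1455 and 1560 bases for Cacnb1, Cacnb2, Cacnb3 and Cacnb4.

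The libraries held between 16793162 and 22340542 counted fragments, with a median of 18874668. The common estimate over genes from edgeR of variation between replicates beyond counting noise, as a coefficient of variation, was 5.34%. Of the 10 β-cell markers checked, including Ins1, Ins2, Pdx1 and Mafa, all had a mean FPKM above 1. Among markers of other cells, Gcg, which encodes glucagon, had an FPKM of 200–227, while Adgre1, Ptprc, Dcn, Lum, Hhex and Prss2 had none. The highest marker of each of those cell types had a mean FPKM of 4.04 (macrophage, Cd68), 1.39 (delta, Sst), 0.962 (acinar, Cela1) and 0.403 (fibroblast, Col1a1). The filter on low counts left 16222 genes to test, 6 of the 8 described here among them: Rrad and Rem1 did not pass. In bulk RNA, fewer cells that express a gene and less of its RNA in each cell cannot be told apart.

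Gem (ENSMUSG00000028214, plus strand of chromosome 4, 11704457 to 11714752 on mm10) encodes the GTPase also called Kir, an RGK protein that is induced in activated T cells and binds calmodulin. Its FPKM was 10.7, 9.22 and 9.98 in low glucose with vehicle and 9.35, 10.9 and 9.54 in low glucose with TMAO. It was 25.9, 26.9 and 30.9 in high glucose with vehicle and 28.4, 27.1 and 29.1 in high glucose with TMAO. All 6 high-glucose libraries lay above all 6 low-glucose libraries, with a gap from 10.9 to 25.9 between them, and the treatments overlapped at each glucose level. These levels rest on 371 to 449 fragments per library in low glucose and on 1005 to 1278 in high glucose.

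The mean FPKM of Gem was 9.96 ± 0.729 (SD, n = 6) in low and 28.1 ± 1.80 (SD, n = 6) in high glucose. As log2 fold changes of the counts, high minus low glucose, the differences were 1.48 (standard error 0.075, a fold of 2.80) with vehicle and 1.5 (standard error 0.075, a fold of 2.83) with TMAO. Among the 16222 genes tested, ordered from the largest increase, Gem stood at rank 54 with vehicle and at rank 50 with TMAO. Both values chose the group and are a description only. The FPKM of the alpha-cell gene Gcg was also higher in high glucose, at 222–227 against 200–216, while Irx2, another alpha-cell marker, was at 0.0815–0.341 against 0.112–0.219. The summed FPKM of 4 macrophage markers was likewise higher in high glucose, at 4.18–4.88 against 2.88–4.14, where Cd68 held nearly all of the sum and Adgre1 and Ptprc were at 0. The part of these markers in the level of Gem was not tested.

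**Figure D1:**
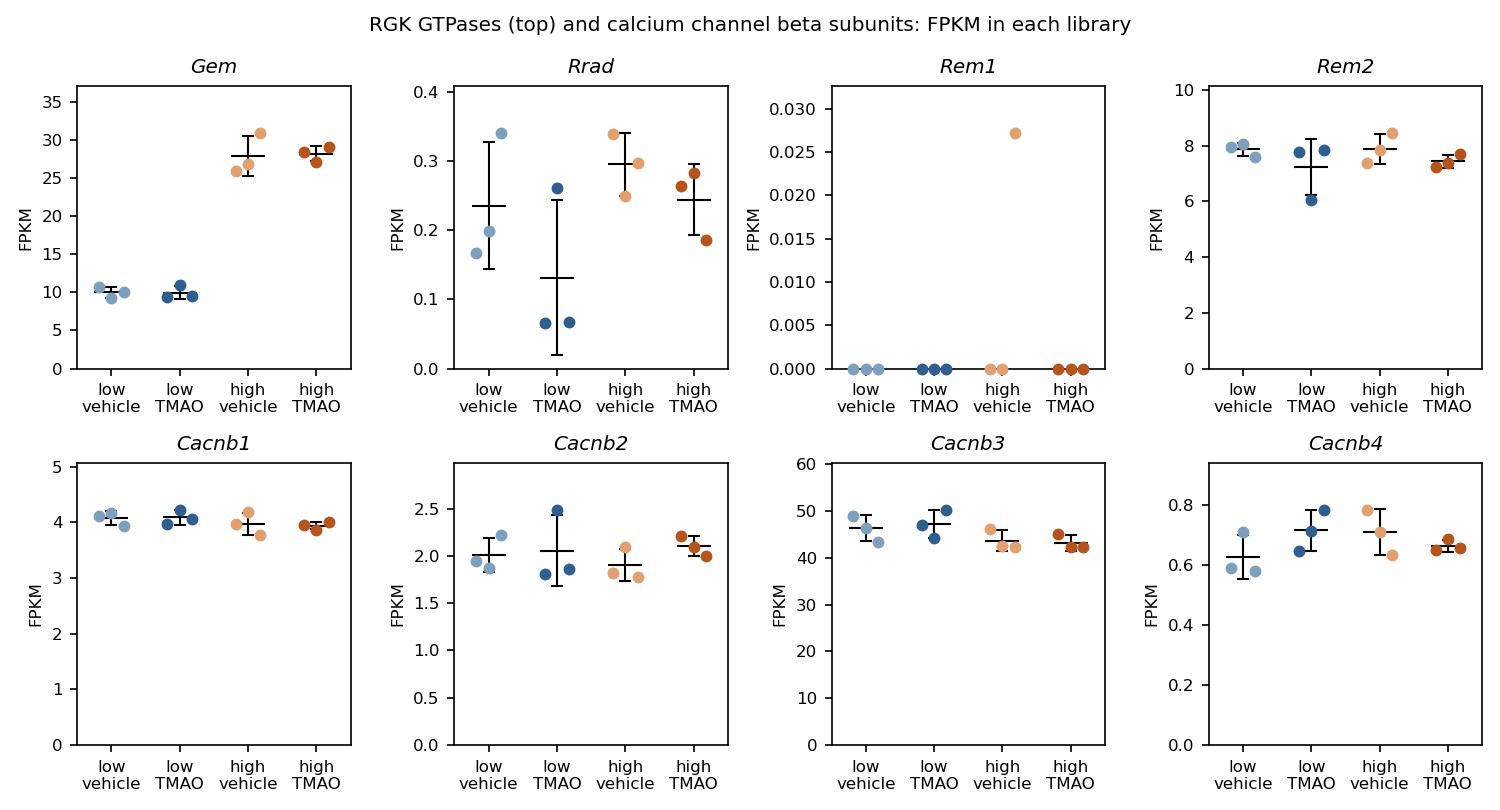
FPKM of the 4 RGK genes (upper row) and the 4 beta subunits (lower row) in each library, by glucose level and treatment, each panel on its own axis from 0. Points are libraries, in replicate order from left to right, and bars are the mean ± SD of 3 libraries, left out for Rem1, which has 1 count in all. Gem sits at 9.22–10.9 in low and 25.9–30.9 in high glucose, and for the other genes the glucose levels overlap.

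Rem2 (ENSMUSG00000022176, plus strand of chromosome 14, 54476100 to 54480431), an RGK protein of brain and endocrine cells, was the other family member with a clear level. Its FPKM was 7.94, 8.06 and 7.59 in low glucose with vehicle, 7.76, 6.06 and 7.85 in low glucose with TMAO, 7.37, 7.84 and 8.45 in high glucose with vehicle and 7.24, 7.37 and 7.7 in high glucose with TMAO. The glucose levels overlapped with both treatments, and the lowest value, 6.06, was that of replicate 2 of low glucose with TMAO. The log2 fold change, high minus low glucose, was 0.0049 (standard error 0.091) with vehicle and 0.044 (standard error 0.092) with TMAO.

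Rrad (ENSMUSG00000031880, minus strand of chromosome 8, 104628070 to 104631327), the Ras-related protein associated with diabetes that is abundant in skeletal and cardiac muscle, was counted 81 times in all 12 libraries together. It had 5, 6 and 10 counts in low glucose with vehicle, 2, 8 and 2 in low glucose with TMAO, 10, 8 and 8 in high glucose with vehicle and 7, 10 and 5 in high glucose with TMAO. The sums were 33 counts in the 6 low-glucose and 48 in the 6 high-glucose libraries, and the ranges of 2–10 and 5–10 overlapped. Without the filter on low counts its log2 fold change with glucose was 0.31 (standard error 0.54) with vehicle and 0.88 (standard error 0.61) with TMAO, and at this depth differences of that size were not detectable. Rrad also overlaps the antisense gene Gm33023 over 496 bases, and over their whole lengths the mean count in a library was 1.67 for Gm33023 and 6.75 for Rrad.

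Rem1 (ENSMUSG00000000359, plus strand of chromosome 2, 152626951 to 152635198), an RGK protein of heart and other muscle, had 0 counts in 11 of the 12 libraries and 1 count in replicate 3 of high glucose with vehicle. A count of 0 allows up to 3 counts, which for a gene of this length is an FPKM of 0.0623 to 0.0829 depending on the library, under the FPKM of every other gene of the 8 except Rrad. Of 6 muscle markers, Acta1 and Mylpf had a mean FPKM above 1, and the sum of the 6 was 3.62–4.12 in low and 2.85–4.30 in high glucose.

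FPKM is scaled to gene length, so levels set side by side between genes rest on the lengths used. These were 2104 bases for Gem and 2251 for Rem2, 4529 for Cacnb1, 13228 for Cacnb2, 3120 for Cacnb3 and 8963 for Cacnb4. Gem and Rem2 together held nearly all of the summed RGK FPKM, and the share of Gem was 55.2% ± 2.18 in low glucose with vehicle, 57.5% ± 5.11 in low glucose with TMAO, 77.3% ± 0.537 in high glucose with vehicle and 78.6% ± 0.573 in high glucose with TMAO (SD, n = 3). The share of Rem2 was 43.5%, 41.7%, 21.9% and 20.7% in the same order. The sum itself was 17.7 ± 0.623 FPKM in low and 36.0 ± 2.14 in high glucose (SD, n = 6), with no overlap between 17.2–18.8 and 33.6–39.7. The FPKM of Gem was 1.27 ± 0.111 times that of Rem2 in low glucose with vehicle, 1.41 ± 0.344 times with TMAO, 3.53 ± 0.115 times in high glucose with vehicle and 3.79 ± 0.125 times with TMAO (SD, n = 3). In high glucose the 3 TMAO libraries (3.68 to 3.92) lay just above the 3 vehicle libraries (3.43 to 3.66) in this ratio, and in low glucose they overlapped (1.21 to 1.81 against 1.14 to 1.35). Alone, Gem and Rem2 each overlapped between the treatments in high glucose, where 11.1% of all tested genes did not. These shares and ratios are described without a test.

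Among the beta subunits, Cacnb3 (ENSMUSG00000003352, plus strand of chromosome 15, 98632220 to 98644530), whose loss in mice is known to raise insulin secretion, had the highest level. Its FPKM was 49, 46.4 and 43.4 in low glucose with vehicle, 47.1, 44.2 and 50.3 in low glucose with TMAO, 46.2, 42.5 and 42.2 in high glucose with vehicle and 45.1, 42.3 and 42.2 in high glucose with TMAO. The glucose levels overlapped with each treatment, and the log2 fold change, high minus low glucose, was -0.083 (standard error 0.054) with vehicle and -0.13 (standard error 0.054) with TMAO. With 1 library left out these ranged from -0.13 to -0.040 and from -0.17 to -0.079. It was the most expressed of the 8 genes in all 12 libraries, above 96.1% of the 30981 genes with at least 1 count.

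Cacnb1 (ENSMUSG00000020882, minus strand of chromosome 11, 98001508 to 98023034), the beta subunit of skeletal muscle channels that other tissues express too, was the steadiest. Its FPKM was 4.12, 4.17 and 3.93 in low glucose with vehicle, 3.98, 4.23 and 4.06 in low glucose with TMAO, 3.97, 4.18 and 3.78 in high glucose with vehicle and 3.96, 3.87 and 4 in high glucose with TMAO. The 12 values lay within 3.78 to 4.23, and the log2 fold change with glucose was -0.031 (standard error 0.077) with vehicle and -0.052 (standard error 0.077) with TMAO.

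Cacnb2 (ENSMUSG00000057914, plus strand of chromosome 2, 14603088 to 14987908), the main beta subunit of the heart, had an FPKM of 1.95, 1.87 and 2.22 in low glucose with vehicle and 1.81, 2.49 and 1.86 in low glucose with TMAO. In high glucose it was 1.82, 2.09 and 1.78 with vehicle and 2.21, 2.09 and 2 with TMAO. The highest value, 2.49, belonged to replicate 2 of low glucose with TMAO, the library in which Rem2 was lowest. The log2 fold change with glucose was -0.077 (standard error 0.10) with vehicle and 0.032 (standard error 0.10) with TMAO, and the latter was 0.20 when replicate 2 of low glucose with TMAO was left out.

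Cacnb4 (ENSMUSG00000017412, minus strand of chromosome 2, 52428320 to 52676831), a beta subunit of brain channels, was low, with an FPKM of 0.592, 0.712 and 0.58 in low glucose with vehicle and 0.649, 0.715 and 0.786 in low glucose with TMAO. In high glucose it was 0.786, 0.711 and 0.634 with vehicle and 0.65, 0.687 and 0.658 with TMAO. Its counts were 97 to 138 per library and the groups overlapped, with a log2 fold change with glucose of 0.18 (standard error 0.14) with vehicle and -0.10 (standard error 0.14) with TMAO, which ranged from 0.10 to 0.28 and from -0.17 to -0.034 when 1 library was left out.

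Cacnb3 held 85.6% to 88.2% of the summed beta subunit FPKM in all 12 libraries, with a median of 7.81% for Cacnb1 and the remainder in Cacnb2 and Cacnb4. The sum was 53.5 ± 2.51 FPKM in low and 50.1 ± 1.83 in high glucose (SD, n = 6), and the ranges of 50.2–57.0 and 48.4–52.8 overlapped. Against this sum, the FPKM of Gem stood at a ratio of 0.188 ± 0.0134 in low glucose with vehicle, 0.185 ± 0.0238 with TMAO, 0.558 ± 0.0747 in high glucose with vehicle and 0.565 ± 0.0263 with TMAO (SD, n = 3). The ratio was 0.167 to 0.212 in the 6 low-glucose and 0.491 to 0.639 in the 6 high-glucose libraries. It compares transcript levels per length and not proteins.

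**Figure D2:**
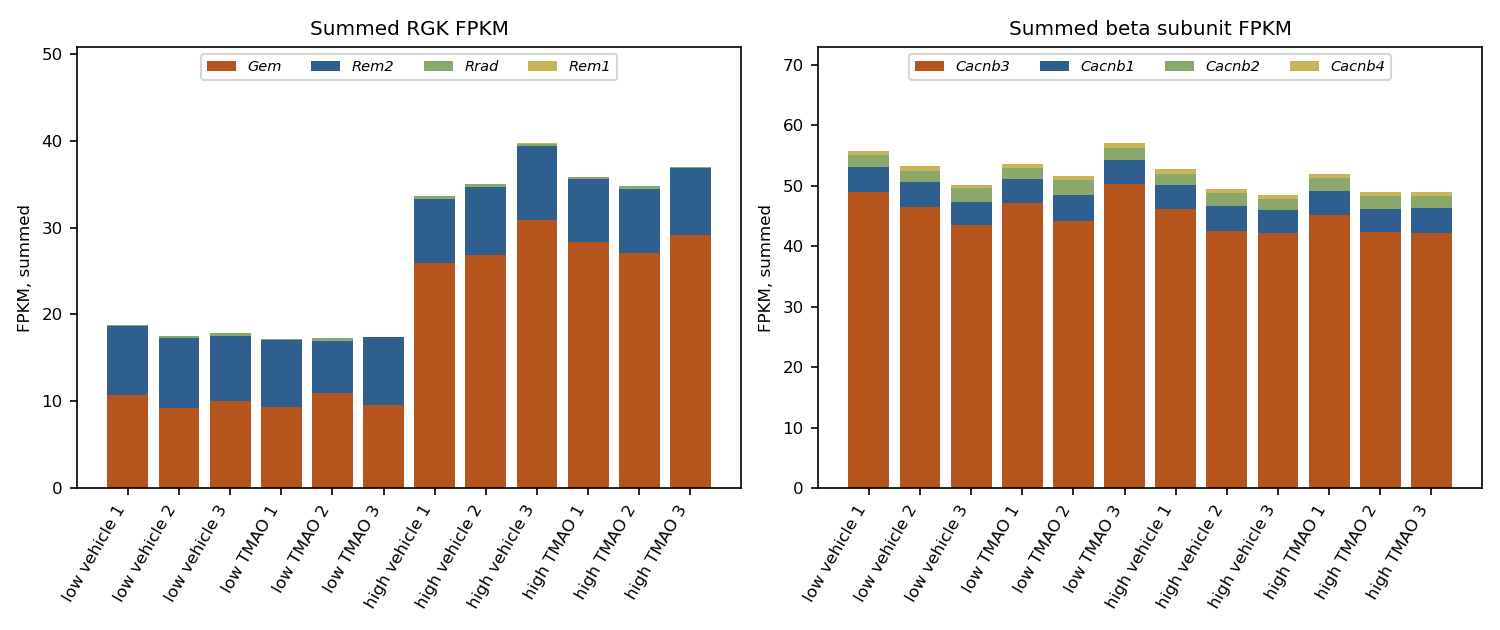
Summed FPKM of the RGK genes (left) and the beta subunits (right) in each library, with the height of each color the FPKM of 1 gene. The RGK sum is 17.2–18.8 in low and 33.6–39.7 in high glucose, where the segment of Gem is taller and that of Rem2 is alike, and Cacnb3 fills 85.6–88.2% of each beta subunit bar.

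From the highest mean FPKM to the lowest, the order was Cacnb3 (45.1 over 12 libraries), Gem (19.0), Rem2 (7.60), Cacnb1 (4.02), Cacnb2 (2.02), Cacnb4 (0.680), Rrad (0.226) and Rem1 (0.0023). At each glucose level the measured ranges of neighbors in this order did not overlap. In low glucose the lowest Gem value, 9.22, lay above the highest Rem2 value, 8.06. Rrad and Rem1 are not told apart in low glucose, where Rrad went down to 0.0653 and a Rem1 count of 0 allows 0.0623 to 0.0829. The measured order was the same in both glucose levels. It rests on the gene lengths by which FPKM is scaled. In fragments over the 12 libraries, Cacnb2 had 6069, above Cacnb1 with 4136 and Rem2 with 3881. Gem was nearest to Rem2 in low glucose and nearest to Cacnb3 in high glucose, where its highest value was 30.9 and the lowest of Cacnb3 was 42.2.

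For high against low glucose, 1 of the 6 tested genes, Gem, passed an adjusted p of 0.05 with vehicle, where 3.3% of all tested genes did, and 1 of 6, again Gem, with TMAO, where 3.64% did. Gem was also the 1 gene of the 6 whose libraries did not overlap between the glucose levels, with vehicle (18.8% of all tested genes) and with TMAO (18.4%). An unadjusted p under 0.05 from edgeR was reached by 1 of 6 genes with vehicle (13% of all tested genes). With TMAO it was reached by 2 of 6, Gem and Cacnb3 (14.7%). Nothing is read from these counts, since the choice of the group used this contrast. The median log2 fold change of the 6 genes was -0.013 with vehicle and -0.01 with TMAO, beside 0.0021 and 0.0012 over all tested genes.

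**Figure D3:**
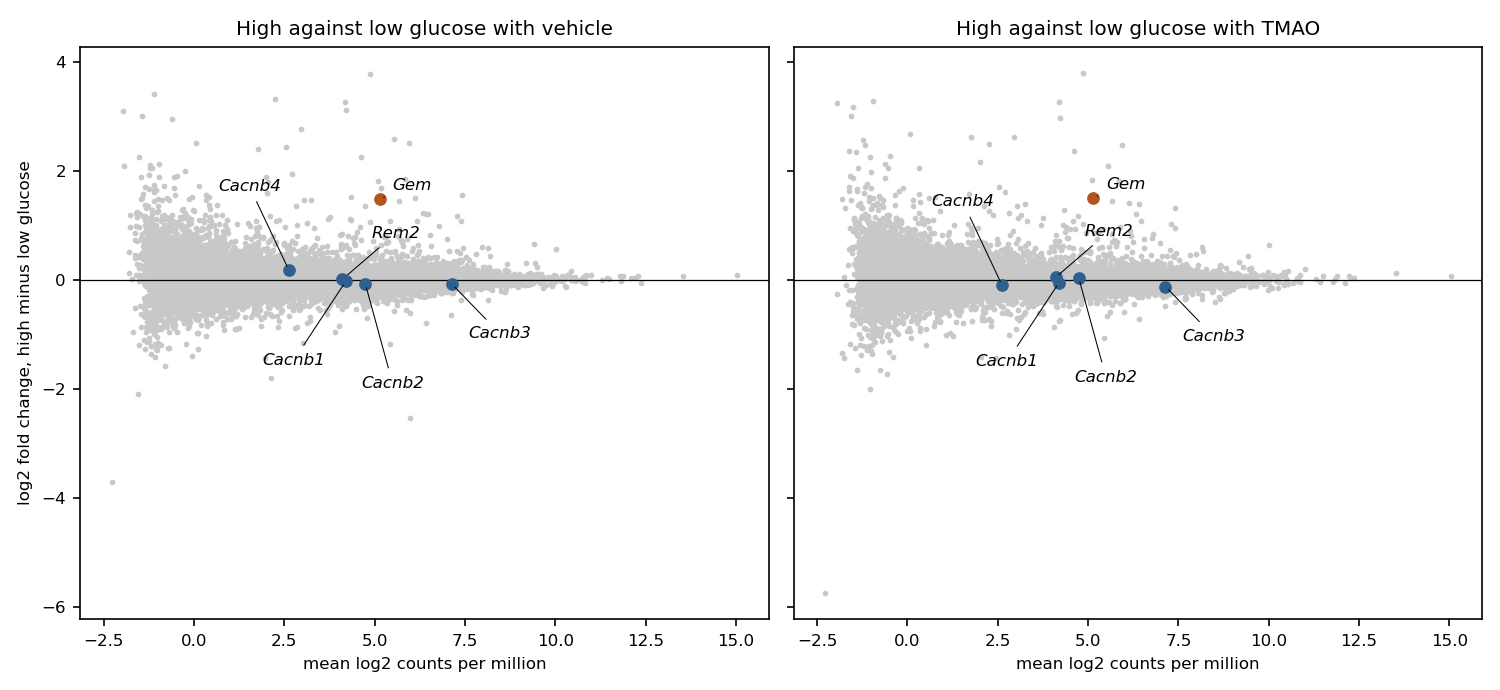
Log2 fold change of high against low glucose (vertical) by mean log2 CPM (library-scaled counts, horizontal) for the 16222 tested genes in gray, with vehicle (left) and TMAO (right). Gem (orange) is at 1.48 and 1.5, and the other 5 tested genes of the families (blue) are between -0.13 and 0.18.

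For TMAO against vehicle, none of these genes passed the threshold at either glucose level. In low glucose, 0 of the 6 tested genes passed an adjusted p of 0.05 in edgeR's quasi-likelihood test, where 0.00616% of all genes were (1 gene, Egr1, named after its value was seen), and in high glucose 0 of 6, where 0% were. An unadjusted p under 0.05 was reached by 0 of the 6 genes in each comparison, beside 357 (2.2%) and 868 (5.35%) of all 16222 genes, and the DESeq2 and limma fits also called 0 of the 6. The TMAO and vehicle libraries overlapped for all 6 genes at both glucose levels, whereas 6.36% of all tested genes did not overlap in low and 11.1% in high glucose. The median log2 fold change of the 6 genes with TMAO was 0.017 in low and -0.015 in high glucose, beside 0.0011 and 0.00039 over all tested genes.

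The log2 fold change of Gem with TMAO was -0.0044 in low glucose (standard error 0.082, 95% confidence interval -0.17 to 0.16) and 0.015 in high glucose (standard error 0.068, interval -0.12 to 0.15), with adjusted p-values of 1.00 and 0.994 from edgeR. As a fold, the intervals run from 0.888 to 1.12 in low and from 0.917 to 1.11 in high glucose. The interaction, which asks whether glucose changed Gem by a different amount with TMAO, was 0.019 (standard error 0.11, interval -0.20 to 0.24, adjusted p = 1.00 from edgeR). The fit therefore leaves room for a glucose difference with TMAO between 0.872 and 1.18 times that with vehicle.

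Rem2 had a log2 fold change with TMAO of -0.12 in low (standard error 0.091, interval -0.31 to 0.063) and -0.084 in high glucose (standard error 0.091, interval -0.27 to 0.10). Averaged over the glucose levels it was -0.10 (standard error 0.065, interval -0.24 to 0.028), and its unadjusted p of 0.119 from edgeR was the lowest of the 6 genes in that comparison (adjusted p = 1.00). Without replicate 2 of low glucose with TMAO the value in low glucose was -0.011 and the average -0.047, and the value in high glucose ranged from -0.13 to -0.034 when 1 library was left out. The interaction of Rem2 was 0.039 (standard error 0.13).

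Cacnb3 was the most precisely measured, with a log2 fold change with TMAO of 0.028 in low (standard error 0.054, interval -0.082 to 0.14) and -0.015 in high glucose (standard error 0.054, interval -0.13 to 0.096). For Cacnb1 the values were 0.0068 and -0.015 (standard errors 0.076 and 0.077). Cacnb2 was at 0.033 in low (standard error 0.10) and 0.14 in high glucose (standard error 0.10, interval -0.075 to 0.36), and the first of these was -0.13 without replicate 2 of low glucose with TMAO. Cacnb4, which had the fewest counts, was at 0.19 in low (standard error 0.14, interval -0.091 to 0.47) and -0.095 in high glucose (standard error 0.14, interval -0.38 to 0.18), with ranges of 0.12 to 0.29 and of -0.17 to -0.016 when 1 library was left out. Its interaction of -0.29 (standard error 0.19, interval -0.68 to 0.11) had the lowest unadjusted p of the 6 genes for that term, 0.152 (adjusted p = 1.00, edgeR). For the interaction and for the average, 0 of 6 genes were called, beside 0% and 0% of all genes, and 0 of 6 reached an unadjusted p under 0.05, beside 3.36% and 3.62%.

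**Figure D4:**
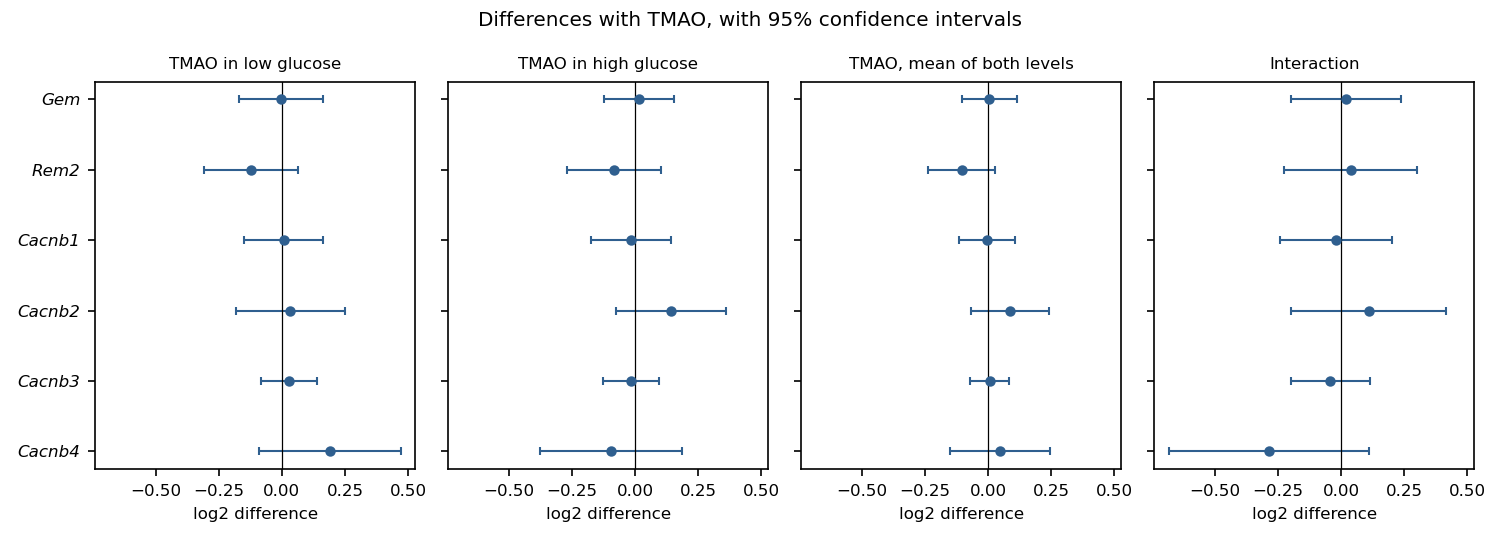
Log2 differences with TMAO for the 6 tested genes, with 95% confidence intervals from edgeR, in low glucose, in high glucose, averaged over both, and for the interaction (the glucose difference with TMAO minus that with vehicle). Each of the 24 intervals includes 0, and they are widest for Cacnb4.

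How the 6 tested genes varied among themselves over the 12 libraries is given as a description, in log2 CPM. Gem had Pearson correlations of 0.099 with Rem2, -0.47 with Cacnb1, -0.015 with Cacnb2, -0.65 with Cacnb3 and 0.081 with Cacnb4. The libraries fall into 2 clusters by glucose for Gem, so these values compare the clusters more than single libraries. The strongest relation was that of Rem2 with Cacnb2, at -0.79, to which replicate 2 of low glucose with TMAO contributes with the lowest Rem2 and the highest Cacnb2. All values of a library share its depth and its scaling.

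The 10 genes whose profile over the 12 libraries was most like that of Gem were found among 12308 genes with a mean of at least 50 counts. They were Neurod1 (Pearson r = 0.995), Zic5, Cebpd, Errfi1, Nr4a2, Fosl2, Sik1, Fam46a, Nr4a1 and B230216N24Rik (r = 0.992). Neurod1, Zic5, Cebpd, Nr4a1, Nr4a2 and Fosl2 encode transcription factors, Errfi1 an inhibitor of the epidermal growth factor receptor and Sik1 a salt-inducible kinase. Their levels and changes differed widely. Neurod1, a transcription factor of β cells, went from 84.4 ± 1.39 FPKM in low to 127 ± 5.51 in high glucose (SD, n = 6), a log2 fold change of 0.58 with vehicle, while Sik1 went from 1.74 ± 0.15 to 23.9 ± 1.85, a log2 fold change of 3.77. After the mean of each condition was removed, the correlation of the 10 genes with Gem over the 12 libraries was 0.396 for Sik1 to 0.825 for Zic5. The 10 genes were picked by their correlation over these same libraries, which also favors this value, and it is a description only.

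**Figure D5:**
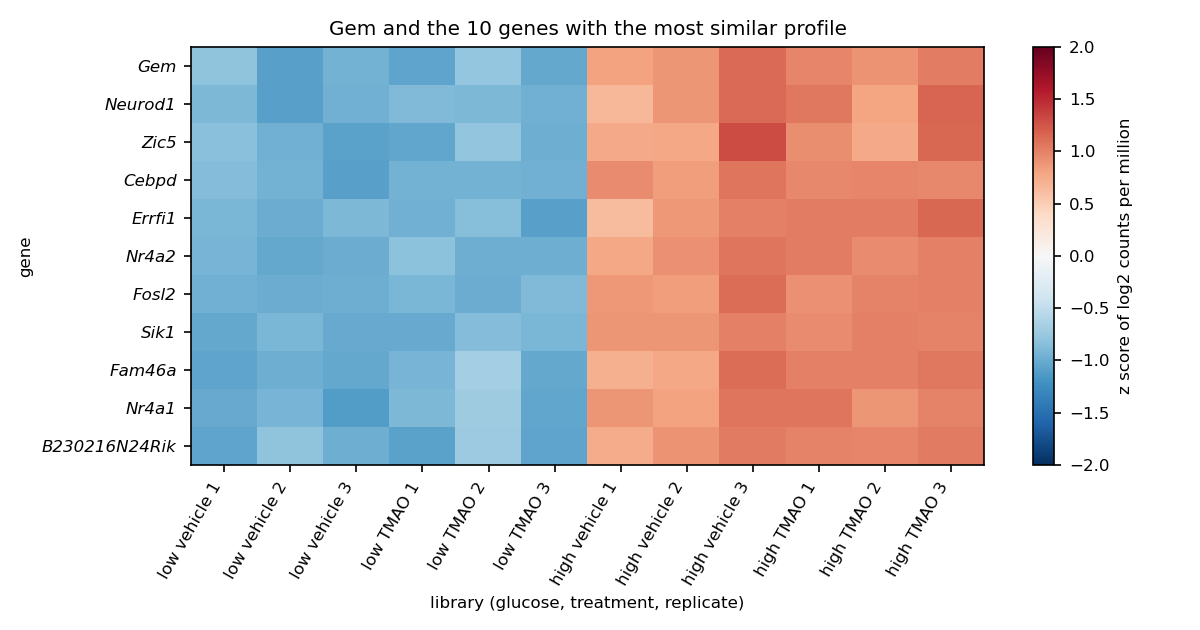
Log2 CPM of Gem and the 10 genes with the most similar profile, scaled within each gene to z scores (color), for the 12 libraries in columns. For these genes, which were picked for it, the 6 low-glucose libraries are below the mean (blue) and the 6 high-glucose libraries above it (red).

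Genes named as other subunits of the channel showed no call in any comparison. The lists are short. The shares of all tested genes called for glucose, 3.3% with vehicle and 3.64% with TMAO, come to less than 1 gene in each. Of 10 genes for pore-forming alpha-1 subunits, 7 were tested, and 0 rose and 0 fell with glucose, with a lowest adjusted p of 0.307 with vehicle and 0.524 with TMAO (edgeR), and 1 and 0 genes at an unadjusted p under 0.05, which 13% of all tested genes reached with vehicle and 14.7% with TMAO. The median log2 fold change of the 7 was 0.048 with vehicle and -0.093 with TMAO, beside 0.0021 and 0.0012 over all tested genes. Cacna1c, the L-type pore, had a mean of 29.5 FPKM over the 12 libraries, more than Cacna1h (9.68), a T-type pore that needs no beta subunit, and Cacna1d (4.36), the other L-type pore of β cells. The log2 fold change of Cacna1c with glucose was 0.13 (standard error 0.080) with vehicle and 0.000058 (standard error 0.080) with TMAO. The accessory alpha-2-delta subunits (3 of 4 tested) were led by Cacna2d1 at 12.7 FPKM, then Cacna2d3 at 0.167 and Cacna2d4 at 0.125. Of 8 genes named as gamma subunits 3 were tested, Cacng1 and Cacng6 not among them. Cacng4 had 4.19 FPKM, Cacng7 1.99 and Cacng2 0.602. Both lists also had 0 calls in edgeR for glucose. An unadjusted p under 0.05 from edgeR was reached by 1 gamma gene with TMAO (14.7% of all tested genes) and by 0 genes otherwise.

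Of the proteins that bind RGK GTPases, likewise short lists beside these shares, all 10 genes for calmodulins and 14-3-3 proteins were tested and 0 were called for glucose by edgeR (0 with vehicle and 2 with TMAO at an unadjusted p under 0.05, beside 13% and 14.7% of all tested genes), with Calm3 (322 FPKM), Ywhae (256) and Calm2 (231) the most abundant. Their median log2 fold change was -0.036 with vehicle and -0.017 with TMAO. Likewise 0 were called of 4 cytoskeletal partners of Gem and Rad (0 at an unadjusted p under 0.05), of which Rock1 (17.1 FPKM), Rock2 (7.73) and Gmip (6.88) had the highest levels, the first pair kinases that act on the cytoskeleton and Gmip a GTPase-activating protein that binds Gem.

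Of 26 tested Ras-family genes outside the RGK branch, 1 rose and 0 fell with glucose in vehicle-treated cells (3.3% of all tested genes were called) and 3 rose and 1 fell in TMAO-treated cells (3.64%), while Rap1a (26.6 FPKM), a close relative of Rap1b, was not called. At an unadjusted p under 0.05 there were 7 and 10 of the 26, beside 13% and 14.7% of all tested genes. Their median log2 fold change was 0.00099 and 0.019. Diras2, a brain Ras-like GTPase, rose in both, with log2 fold changes of 0.72 (standard error 0.073, adjusted p = 2.67e-08 from edgeR) and 0.85 (standard error 0.073, adjusted p = 7.5e-10). Rap1b rose by 0.24 (adjusted p = 0.00267) and Rasd1, a dexamethasone-induced Ras protein, by 0.84 (adjusted p = 0.0149) with TMAO, and Diras1 fell by 0.26 (adjusted p = 0.0434). With vehicle the log2 fold changes of these 3 genes were 0.16, 0.56 and -0.19, with adjusted p-values of 0.0828, 0.178 and 0.199. The difference between the treatments was not called for any gene of this list. With TMAO against vehicle, 0 genes of any of the 6 lists were called by edgeR at either glucose level, and 0 in low and 3 in high glucose, all in the Ras-family list, had an unadjusted p under 0.05, beside 2.2% and 5.35% of all tested genes.

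RefSeq promoters on GRCm38.p6 were given for Rem1, Rem2, Cacnb1, Cacnb2, Cacnb3 and Cacnb4, and not for Gem and Rrad, with 11 start sites in all, from 250 bases before to 50 after each start. On both strands, 0 of the 11 held the cyclic AMP response element TGACGTCA (1.79% of all 32851 promoters), the AP-1 site TGANTCA (7.81%), the Egr site GCGTGGGCG (0.612%), the E-box CACGTG (7.15%) or the CArG box (1.63%). Its core TGACG, which the full response element contains, was in 2 of the 11, of Cacnb2 and Rem1, where 20.8% of all promoters hold it. A match describes letters in this window and is not evidence of binding.

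Where genes overlap, fragments can be hard to assign, and whether they were counted by strand is not given in the sources used here. Gem, Rem1, Rem2 and Cacnb3 overlap no other gene of the table. Cacnb1 overlaps Gm11629 on the other strand (mean 3.17 counts per library against 345 for Cacnb1). Cacnb2 overlaps 15 genes, of which Gm37891 had the most (13.3 against 506), and Cacnb4 overlaps Bloc1s2-ps on the other strand (15.9 against 116), A430018G15Rik (1.33) and Gm13541 (0).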

How the data were processed

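RNA-seq of 12 MIN6 libraries was analysed, with condition and replicate number taken from the sample labels and matched to the column names. The authors deposited counts of fragments per gene, with no normalization, and FPKM values, made from those counts by gene length and library size. Per the submitters' processing notes, HISAT2 2.0.5, featureCounts 1.5.0-p3, DESeq2 1.16.1 and the build mm10 were used; the strand setting is not given in the sources used here. Both tables were joined by gene ID, and coordinates are those of the count table. Of the 53465 Ensembl IDs, GENCODE M21 on GRCm38 lists 53360, with equal coordinates for 51383 and for 7 of the 8 genes described (not Cacnb3).

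Counts were fitted in R 4.3.3 with edgeR 4.0.16 (filterByExpr, TMM, robust quasi-likelihood F test) on all 12 libraries and all genes, with Benjamini-Hochberg adjustment over the 16222 tested genes and a threshold of 0.05. The 6 comparisons were glucose with each treatment, TMAO at each glucose level, the interaction and the TMAO average. The genes and lists were chosen with earlier results of these data known. All 8 genes are named, with list genes called in any comparison or else the 3 of highest mean FPKM in a list, and the 10 genes most correlated with Gem (mean of at least 50 counts, prior count 1). No 2 libraries of a condition were alike within sampling noise. Some genes that these rules name are not reported here. The steps were tested on simulated counts. Totals were 16793162 to 22340542, at which 3 counts are at most 1.79e-05% of a library; such limits cover counting error only. The results were recomputed with the median-of-ratios size factors of DESeq2 1.42.0, with its Wald test, without the filter or with 10 or more counts required per library, on the compared libraries alone, with a replicate block, by limma 3.58.1 on FPKM values (log2 after adding 1 or 0.1, which understates changes of low genes), and with each library omitted. Figures were drawn with matplotlib 3.10.9. All per-library columns were used.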

Additional observations from a re-analysis of the deposited data

How the results depend on the processing

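Of the 6 tested genes, 0 were called for TMAO, the interaction or the average under each alternative run for them (for the interaction and the average, which use all 12 libraries, a fit of only the libraries compared was not run). With all libraries kept, no log2 fold change of the 6 tested genes changed sign in the TMAO comparisons, and those that changed sign did so when 1 library was left out.

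The numbers of all genes called moved more. For glucose with TMAO (591), limma on FPKM values gave 347 with a pseudocount of 1 and 337 with 0.1. For TMAO in low glucose (1), no filter gave 7, only the libraries compared 3, and both limma fits 0. For TMAO in high glucose (0; 868 at an unadjusted p under 0.05) it was 3 with DESeq2, 13 with no filter and 3 with only the libraries compared, for the interaction (0; 545) 1 with DESeq2 and 6 with no filter, and for the average (0; 588) 2 and 9. The causes were not tested.

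Leaving out each library in turn gave 328 (without replicate 3 of high glucose with vehicle; 341 without replicate 2 of low glucose with vehicle) to 475 genes for glucose with vehicle, 344 (without replicate 3 of high glucose with TMAO; 365 without replicate 1 of low glucose with TMAO) to 657 for glucose with TMAO, 0 to 1 for TMAO in low and in high glucose, and 0 to 2 for the interaction and the average. The 0 in low glucose came without replicate 2 with TMAO. The log2 fold change with glucose ranged from -0.051 to 0.20 with TMAO and -0.16 to -0.0041 with vehicle for Cacnb2, from -0.047 to 0.051 with vehicle and -0.067 to 0.11 with TMAO for Rem2, and from -0.070 to 0.0021 with vehicle for Cacnb1. For TMAO against vehicle in low glucose it ranged from -0.19 to -0.011 for Rem2, -0.079 to 0.051 for Gem, -0.019 to 0.027 for Cacnb1, -0.13 to 0.12 for Cacnb2 and -0.021 to 0.073 for Cacnb3. In high glucose it was -0.033 to 0.093 for Gem, 0.10 to 0.22 for Cacnb2, -0.049 to 0.023 for Cacnb1 and -0.046 to 0.030 for Cacnb3. The interaction was -0.035 to 0.097 for Gem, -0.073 to 0.10 for Rem2, -0.056 to 0.017 for Cacnb1, 0.025 to 0.27 for Cacnb2 and -0.087 to 0.0063 for Cacnb3. The average was -0.032 to 0.044 for Gem, -0.021 to 0.015 for Cacnb1, 0.0074 to 0.13 for Cacnb2, -0.018 to 0.029 for Cacnb3 and 0.011 to 0.097 for Cacnb4. None of these values was called.

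Same-numbered libraries of different conditions deviated from their means with a correlation of -0.037 to 0.206 (mean 0.031 over 18 pairs, against -0.015 over 36 others), and 9 of 12 libraries were nearest to their own number, a hint from the data and not the design. With the replicate block, 717 and 783 genes were called for glucose with vehicle and TMAO, 1 for TMAO in low glucose and 0 in the other comparisons, with Gem at 1.48 and 1.5.

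Depth limits Rem1, which had 1 count and was not compared, Rrad, which was fitted only without the filter, and Cacnb4, whose intervals were the widest. With 3 libraries a condition, small changes of the beta subunits are bounded by the intervals given and not shown to be absent.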
